A study of Mus musculus with 6 samples.

Results

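Tetraploid (4n) and diploid (2n) cardiomyocytes (CMs) of the mouse left ventricle at postnatal day 1 (P1) were compared gene by gene. A cell was kept as a CM when it held at least 1 UMI, a counted mRNA molecule, of each of the 4 cardiac contractile genes Tnni3, Tnnt2, Actc1 and Tnnc1. This kept 7340 of 7469 cells of the P1-2n library and 4747 of 4777 cells of the P1-4n library, together 12087 of the 30733 CMs in all 6 libraries of the series. The values of these 4 genes are in part set by that choice.

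The mice were C57BL/6J animals with no transgene or treatment named, and the other 4 libraries hold 2n and 4n CMs of embryonic day 16.5 (E16.5) and P5. Left ventricles of several pups per litter were dissociated, fixed in methanol, stained for the myosin MYH1 and for DNA with Hoechst, and sorted by DNA content, and each 10x Genomics 3' library pooled the cells of 3 sorts. The pooled sorts cannot be separated in the deposited counts. Each side of the comparison is thus 1 library with no replicate, and no p-value is given. Intervals are 95% intervals that cover counting error only. Those of differences in shares of CMs join the outer ends of both shares' intervals and are wider than 95% intervals. A DNA content of 4n does not tell a binucleated or polyploid CM from a diploid CM that has copied its DNA and not yet divided, nor from diploid cells that stuck together, and no doublet caller was run. The paper states that cells were filtered before sorting and that clumps were scarce by microscopy, in a passage on sorted P5 CMs.

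Cardiac muscle cells of rodents leave the cell cycle around birth. In their last rounds they copy the DNA, and many assemble a spindle and separate chromosomes without completing cytokinesis, which leaves a cell with a doubled genome in 1 nucleus or in a pair of nuclei. The genes of G2 and mitosis (cyclins A and B with their kinase, spindle and kinetochore proteins, the cytokinetic ring) are transcribed late in the cycle, largely through a cell-cycle homology region (CHR) bound by MuvB complexes and through CCAAT boxes bound by NF-Y, whereas most genes of DNA replication peak earlier under E2F factors.

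The 3 mitotic genes with most UMIs in the P1-4n library among those whose promoter holds a CHR are Hmgb2, Ube2c and Cenpa. Their promoters are printed as examples of the mitotic genes. The sequences are RefSeq's on build GRCm38.p6, each 280 bases from 250 bases before the transcription start, on the plus strand, at chr8:57511593-57511872, chr2:164769679-164769958 and chr5:30666636-30666915 respectively. Capitals mark the CHR (TTTGAA, or TTCAAA on the other strand) and the CCAAT box (CCAAT, or ATTGG on the other strand).
Hmgb2: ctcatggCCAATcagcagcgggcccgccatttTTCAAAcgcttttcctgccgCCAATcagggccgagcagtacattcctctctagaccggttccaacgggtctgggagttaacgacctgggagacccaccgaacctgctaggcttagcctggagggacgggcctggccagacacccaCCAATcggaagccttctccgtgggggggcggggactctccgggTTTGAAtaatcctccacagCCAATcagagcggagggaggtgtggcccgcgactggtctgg
Ube2c: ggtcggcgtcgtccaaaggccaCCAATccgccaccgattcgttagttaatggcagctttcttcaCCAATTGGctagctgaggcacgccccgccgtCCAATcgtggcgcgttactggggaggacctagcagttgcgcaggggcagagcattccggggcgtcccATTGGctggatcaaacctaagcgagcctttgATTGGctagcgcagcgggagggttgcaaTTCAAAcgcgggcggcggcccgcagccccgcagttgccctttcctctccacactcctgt
Cenpa: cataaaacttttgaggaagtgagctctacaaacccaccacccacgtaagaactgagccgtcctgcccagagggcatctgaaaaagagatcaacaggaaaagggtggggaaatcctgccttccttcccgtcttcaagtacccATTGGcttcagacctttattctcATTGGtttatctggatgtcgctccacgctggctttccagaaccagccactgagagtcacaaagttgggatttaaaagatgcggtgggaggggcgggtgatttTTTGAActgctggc
A CHR lay 30 bases before the start in Hmgb2, which holds another at 218 bases, 29 bases before it in Ube2c and 17 bases after it in Cenpa. In the Ube2c promoter a pair of CCAAT letters on opposite strands overlap, starting 186 and 183 bases before the start. Promoters of 56 of the 67 mitotic genes were matched, 59 windows of 250 bases before to 50 after a start. The CHR letters were in 42 of the 59 (71.2%), against 5878 of all 32851 promoters (17.9%) and 3 of 34 windows (8.82%) of 29 DNA replication genes. CCAAT letters were in 67.8% of the mitotic windows, 37.4% of all promoters and 58.8% of the replication windows. Both motifs were in 57.6%, 6.95% and 5.88% of them. These are matches of letters, not sites of binding.

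The libraries differed in depth. The CMs held 16444942 UMIs in P1-2n and 19665830 in P1-4n. A median CM had 1831 UMIs and 807.5 genes in P1-2n and 3187 UMIs and 1203 genes in P1-4n, a 1.74-fold difference in UMIs. Sarcomere genes gave on average 181 UMIs per CM in P1-2n and 305 in P1-4n, a ratio of 1.69. Mitochondrial transcripts took 16.3% and 16.8% of the UMIs. The libraries shared 46 cell barcodes, which was under 1% of the cells of either. UMIs were therefore summed per gene over the CMs of a library and given as CPM, the gene's part of all UMIs of that library's CMs times 1000000, a relative level that does not show the 1.74-fold difference per cell.

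Over the 9653 genes with at least 100 UMIs in both P1 libraries together, the differences were lopsided. 505 genes, 5.23% of those tested, were at least 2-fold higher in the P1-4n library, 358 of them with the whole counting interval above 2-fold, and none (0) was 2-fold lower. The median log2 ratio of P1-4n over P1-2n was 0.049, the 5th and 95th percentiles were -0.28 and 1.05, and the range ran from -0.85 to 4.19. Of the 505 genes, 49 were mitotic genes and 36 were markers of cells other than CMs, while 408 were in none of the gene lists used here. Genes with few UMIs held most of them: 10.9% of the third of genes with fewest UMIs, 3.42% of the next and 1.40% of the third with most were 2-fold higher.

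**Figure D1:**
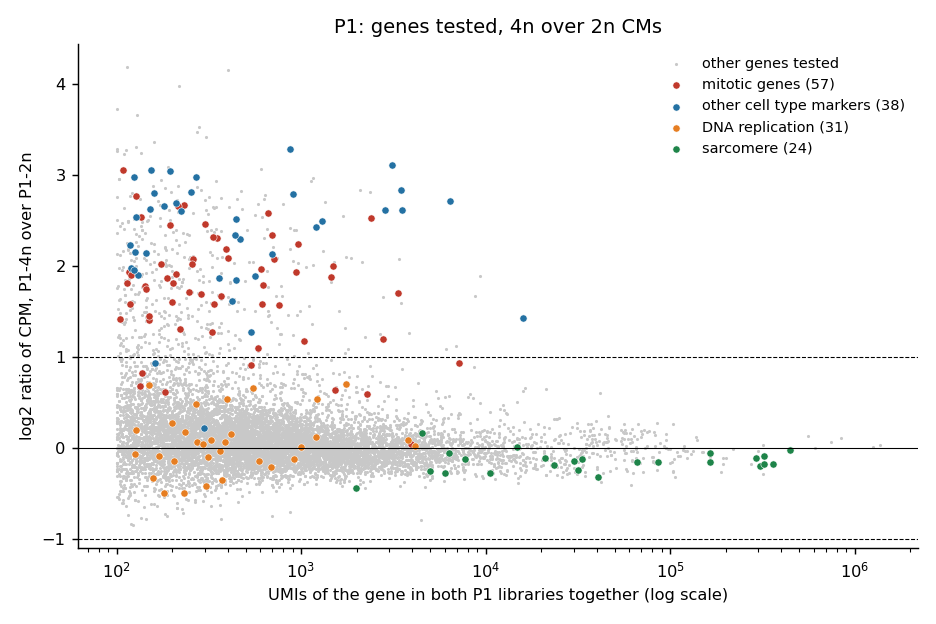
Each point is a tested gene, with its UMIs in both P1 libraries on a log axis and the log2 ratio of CPM, P1-4n over P1-2n, on the other. Mitotic genes and markers of other cell types lie mostly above a log2 ratio of 1, where 505 genes sit, and no gene lies below -1.

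Genes of mitosis formed the group that stood highest among the genes of the cell cycle. Of 67 mitotic genes, 57 were tested. Of these, 49 were at least 2-fold higher in P1-4n, against 5.23% of all tested genes, and none was 2-fold lower. The interval lay above 0 for 56, against 24.7% of all tested genes with an interval above 0 and 13.1% with one below. Their summed level was 662 CPM in P1-2n against 1654 in P1-4n, a ratio of 2.50 (log2 1.32, interval 1.29 to 1.35), and the median log2 ratio of the tested members was 1.81 beside 0.049 over all genes.

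Among the G2/M cyclins, kinases and regulators, 11 of 14 tested of 18 members were 2-fold higher. Ube2c, the ubiquitin-conjugating enzyme that works with the anaphase-promoting complex (ENSMUSG00000001403, chromosome 2, 164769898 to 164778822 on GRCm38), had 303 UMIs (18.4 CPM) in P1-2n and 2084 UMIs (106 CPM) in P1-4n, a log2 ratio of 2.52 (2.35 to 2.70). Ccnb1, the cyclin B1 that drives entry into mitosis (chromosome 13, 100778650 to 100786570), had 81 and 579 UMIs, a log2 ratio of 2.58 (2.24 to 2.93). Its kinase Cdk1 had 270 and 1184 UMIs, 16.4 and 60.2 CPM. Both partners were thus higher in P1-4n, and so was Ccna2, cyclin A2, at 118 and 593 UMIs and a log2 ratio of 2.07 (1.78 to 2.37). Cdc20, the activator of the anaphase-promoting complex, had 6.02 and 30.5 CPM. The mitotic kinases Plk1, with 27 and 206 UMIs, and Aurka, with 40 and 263, had log2 ratios of 2.67 (2.09 to 3.31) and 2.46 (1.98 to 2.98). Pttg1, which encodes securin, did not follow: it had 107 CPM in P1-2n against 110 in P1-4n, a log2 ratio of 0.04 (-0.05 to 0.13).

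All 22 tested of 26 kinetochore and spindle genes were 2-fold higher, with a summed level of 153 CPM in P1-2n against 469 in P1-4n. Birc5, survivin, a subunit of the chromosomal passenger complex, had 257 and 1224 UMIs and a log2 ratio of 1.99 (1.80 to 2.19). The outer kinetochore subunit Spc25 had 146 and 822 UMIs, 8.88 and 41.8 CPM. Cenpa, the histone variant that marks the centromere, stood lower in the group at 45.4 and 104 CPM, a log2 ratio of 1.20 (1.07 to 1.32).

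The cytokinesis genes had the highest ratio of the 4 mitotic groups, 26.1 CPM in P1-2n against 102 in P1-4n (log2 1.97, 1.82 to 2.12), and 10 of 10 tested of 12 members were 2-fold higher. Anln, the anillin of the contractile ring, had 48 and 286 UMIs and a log2 ratio of 2.32 (1.87 to 2.79). Racgap1, a subunit of centralspindlin, had 122 and 503 UMIs. Cep55, which acts at the midbody in abscission, had 10 and 99 UMIs and a log2 ratio of 3.05 (2.11 to 4.15). The chromosome condensation genes had the lowest ratio, 208 and 424 CPM, with 6 of 11 members 2-fold higher. Top2a, topoisomerase II alpha, stood at 169 and 773 UMIs there, and Hmgb2, a chromatin protein, at 2186 and 5003 UMIs with a log2 ratio of 0.94 (0.86 to 1.01). The condensin subunit Smc4 had a log2 ratio of 0.63 (0.48 to 0.79).

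**Figure D2:**
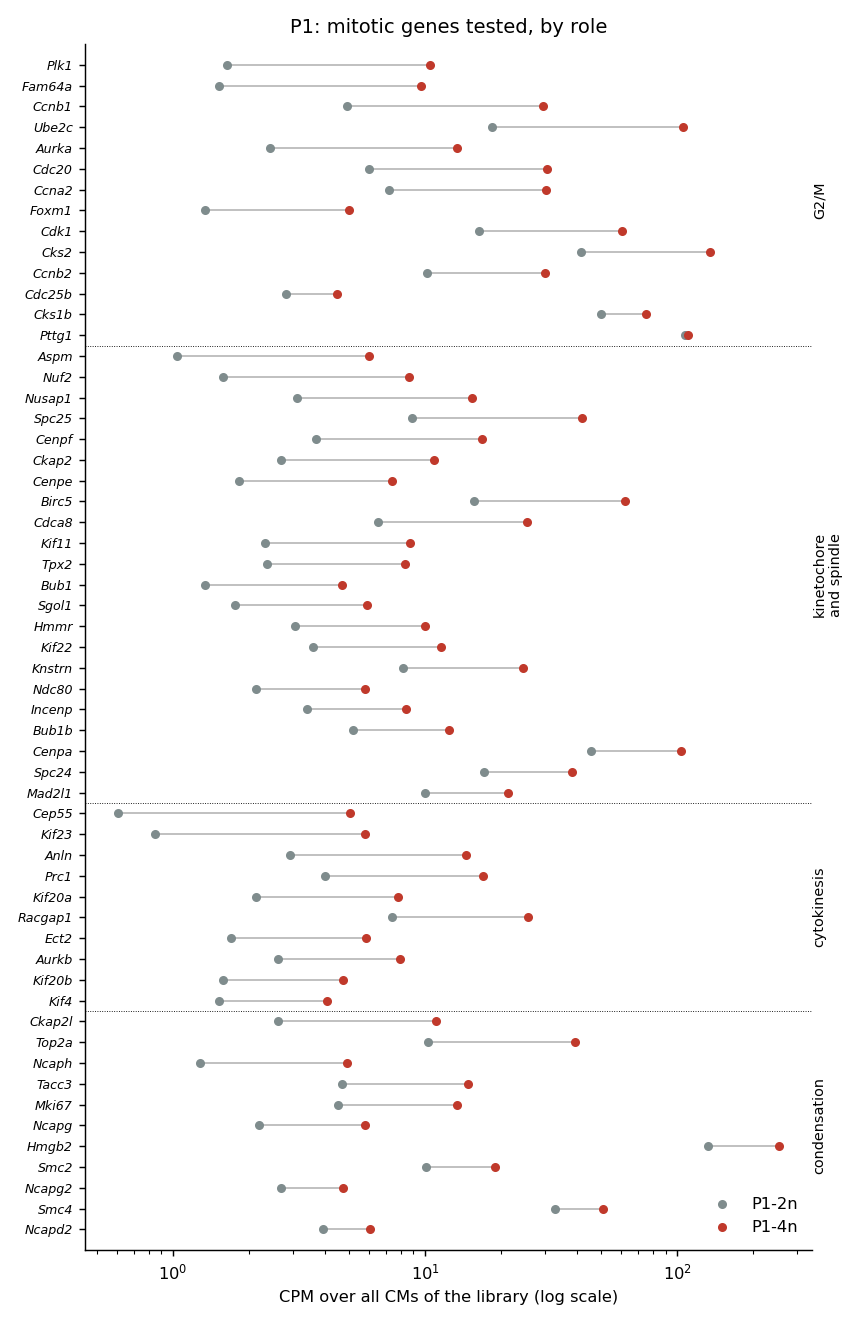
CPM of each tested mitotic gene over all CMs of P1-2n (grey) and P1-4n (red) on a log axis, grouped by role, with a line joining the 2 libraries. All 57 genes lie higher in P1-4n, Pttg1 by the least, with 107 and 110 CPM.

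The mitotic UMIs were spread unevenly over the CMs, more so in P1-4n. For a comparison at 1 depth each CM was thinned to 2000 UMIs, which left 3207 CMs of P1-2n and 3749 of P1-4n and left out 4133 and 998 shallower ones. With at least 2 different mitotic genes, 23.0% of the P1-2n CMs (21.5 to 24.5) against 34.3% in P1-4n (32.8 to 35.9) held mitotic transcripts, a difference of 11.3 points (8.33 to 14.3). Without thinning the shares were 23.1% and 51.1%. No mitotic UMI was found in 41.7% of the CMs in P1-2n against 32.8% in P1-4n. At the other end, 24 CMs of P1-2n (0.748%) and 204 of P1-4n (5.44%) had 20 or more mitotic UMIs. The tenth of CMs with most mitotic UMIs held 54.0% of them in P1-2n and 68.4% in P1-4n. For DNA replication UMIs the same shares were 50.2% and 47.7%. The cut lies in a continuous range, since 1134 and 1233 CMs had 1 mitotic gene and 461 and 569 had 2. It does not show that a CM was in mitosis, since any 2 genes of the list pass it, Hmgb2 and Pttg1 among them.

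Both the share of CMs with mitotic transcripts and their content per CM differed. The following values are from CMs with at least 2 mitotic genes and fewer than 2 genes of any other cell type, 686 in P1-2n and 755 in P1-4n. Since mitotic genes chose these cells, the levels are a description. Mitotic genes summed to 1975 CPM in P1-2n against 5218 in P1-4n, a log2 ratio of 1.40 (1.36 to 1.45). Ube2c had 66.5 and 414 CPM and Ccnb1 23.4 and 120 CPM in these cells, while Pttg1 had 166 and 144 CPM. DNA replication genes, which were not used for the choice, had 1369 and 1179 CPM, a log2 ratio of -0.22 (-0.28 to -0.15). In the 2352 and 1636 CMs with fewer than 2 mitotic genes and no other cell type, mitotic genes had 304 and 376 CPM.

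**Figure D3:**
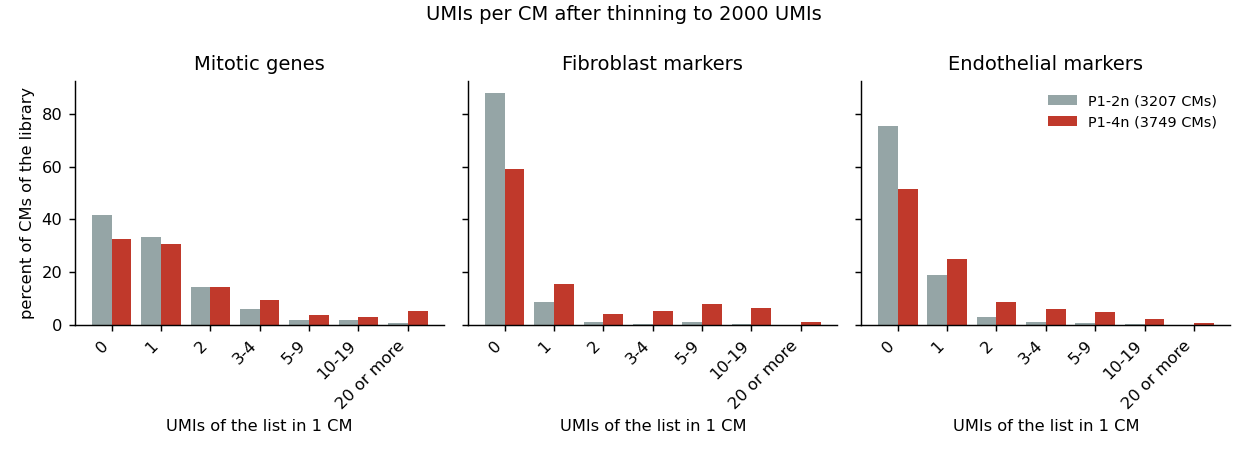
Percent of CMs of each P1 library by the number of UMIs of a list in 1 CM, after thinning to 2000 UMIs, for 3 lists. The bars at 20 or more mitotic UMIs hold 0.748% of 3207 CMs in P1-2n against 5.44% of 3749 in P1-4n, while 88.0% and 59.1% have no fibroblast UMI.

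DNA replication genes did not share this difference. Of 36 genes 31 were tested, none was 2-fold higher or lower, and the interval lay above 0 for 6 and below 0 for 4, shares near the 24.7% and 13.1% of all tested genes. Their sum was 574 CPM in P1-2n against 620 in P1-4n, a log2 ratio of 0.11 (0.07 to 0.15), beside 0.049 for the median gene. Pcna, the sliding clamp of the replication fork, had 453 and 546 UMIs, 27.5 and 27.8 CPM. Mcm3, a subunit of the replicative helicase, had 11.7 and 9.20 CPM, and the licensing factor Cdt1 had 9.79 and 7.32 CPM, log2 ratios of -0.35 (-0.65 to -0.05) and -0.42 (-0.75 to -0.09). Gins1, a subunit of the GINS complex of the replicative helicase, and the flap nuclease Fen1 both had a log2 ratio of -0.50. The enzymes of nucleotide supply stood on the other side. Rrm2, the small subunit of ribonucleotide reductase, had 598 and 1159 UMIs with a log2 ratio of 0.70 (0.55 to 0.84), its large subunit Rrm1 had 0.53 and thymidine kinase Tk1 had 0.66. At 2000 UMIs per CM, 23.2% and 24.3% of CMs held at least 2 replication genes, a difference of 1.10 points (-1.77 to 3.96).

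Among the 14 G1 cyclins, their kinases and E2F factors 12 were tested, and 1, Ccnd1, was 2-fold higher, beside 5.23% of all tested genes. Ccnd1, cyclin D1 (chromosome 7, 144929931 to 144939925), had 122 and 619 UMIs and a log2 ratio of 2.09 (1.80 to 2.38), but 0.06 (-0.97 to 1.00), from 38 and 13 UMIs, in CMs without a UMI of other cell type markers. Ccnd2, cyclin D2, had 164 and 153 CPM, and the kinase Cdk4 had 60.0 and 61.0 CPM. The sum of the list was 406 and 445 CPM, a log2 ratio of 0.13 (0.09 to 0.18). In CMs without a UMI of those markers the list had -0.12 (-0.22 to -0.03).

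CDK inhibitors and genes of cell cycle exit summed to 631 and 726 CPM, a log2 ratio of 0.20 (0.17 to 0.24). Of 19 members 17 were tested and 1, Cdkn1c, was 2-fold higher, 5.88%, near the 5.23% of all tested genes. Cdkn1c, the imprinted inhibitor p57, had 187 and 556 UMIs (log2 1.31) but a log2 ratio of 0.21 (-0.41 to 0.79) in the CMs without a marker UMI. 3 other inhibitors had no lower ratio there: Cdkn1a, the p53 target p21, had 18.4 and 31.0 CPM with log2 ratios of 0.76 in all CMs and 0.92 in the marker-free ones, Cdkn2c 0.83 and 0.88, and Cdkn2d 0.61 and 0.83. Ccng1, cyclin G1, another p53 target, had 153 and 132 CPM, a log2 ratio of -0.21 (-0.29 to -0.13).

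Markers of other cardiac cells had a higher summed ratio than the mitotic genes. The lists hold 63 markers of fibroblasts, endothelium, mural cells, macrophages, lymphoid cells, epicardium and Schwann cells. Of these, 38 were tested and 36 were 2-fold higher in P1-4n, against 5.23% of all tested genes. Together they had 475 CPM in P1-2n against 2037 in P1-4n, a ratio of 4.29 (log2 2.10, 2.06 to 2.14). No lymphoid or Schwann cell marker reached 100 UMIs, and all lymphoid markers together had 1 and 10 UMIs.

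The 12 fibroblast markers were all tested and all 2-fold higher, with 162 CPM in P1-2n against 1062 in P1-4n, a ratio of 6.54. Col1a1, the collagen I alpha 1 chain (chromosome 11, 94936224 to 94953042), had 273 and 2822 UMIs, 16.6 and 144 CPM, a log2 ratio of 3.11 (2.93 to 3.30). Col3a1 had 724 and 5660 UMIs, and Postn, periostin, 422 and 3101. The fibroblast transcription factor Tcf21 had 21 and 159 UMIs. The endothelial markers, 12 of 12 tested of 14, had 273 and 809 CPM. Fabp4, a fatty acid binding protein of capillary endothelium, made up most of their UMIs with 3770 and 12101 (log2 1.42), while Pecam1, CD31, had 62 and 376 UMIs (log2 2.34) and Cdh5, VE-cadherin, 112 and 585. Of the mural markers 4 of 5 tested were 2-fold higher, led in UMIs by the pericyte gene Rgs5 with 168 and 1128 UMIs. The exception Cspg4 had 124 and 172 UMIs, a log2 ratio of 0.21 (-0.13 to 0.56). Macrophage markers were low in both libraries, 184 and 888 UMIs in all, with C1qa at 24 and 107 and Csf1r at 6 and 49.

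Transcripts of other cell types were found in more CMs of P1-4n. At 2000 UMIs per CM, 24.3% of the CMs in P1-4n held, against 3.15% in P1-2n, at least 2 fibroblast markers, and 14.8% against 2.78% held at least 2 endothelial markers, 2.72% against 0.374% mural markers, and 1.25% against 0.218% macrophage markers. At least 1 of these lists was present in 36.2% of CMs in P1-4n (34.7 to 37.8) against 5.27% in P1-2n (4.52 to 6.10), 31.0 points apart (28.6 to 33.3). No CM of either library (0) held at least 2 lymphoid markers. The fibroblast UMIs lay largely in a minority of CMs: the tenth of CMs with most of them held 93.4% in P1-2n against 64.0% in P1-4n. For endothelial UMIs these shares were 70.1% against 62.9%. 35 CMs of P1-2n and 301 of P1-4n had 5 to 9 fibroblast UMIs. Erythroid genes, which serve here as a list of RNA that CMs do not make, were found in far more CMs: with at least 2 genes in 30.2% and 50.2%. Their UMIs were also uneven, with 70.3% and 68.3% of them in the tenth of CMs with most. Globin Hbb-bs had 906 and 1372 CPM, a log2 ratio of 0.60 (0.57 to 0.63), smaller than that of any tested fibroblast marker, of which Fbln1 had the lowest with 1.28.

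The CMs with markers of another cell type were not poor in CM transcripts. In P1-4n the 1358 of them had a median of 4224 UMIs and on average 356 sarcomere UMIs, beside 3711 UMIs and 353 sarcomere UMIs in the 2391 CMs without. As a share of their UMIs, sarcomere genes took 67764 CPM in the first and 77436 CPM in the second. In P1-2n the 169 CMs with and the 3038 without such markers had 68288 and 81941 CPM. Of CMs with mitotic genes, 532 of 1287 in P1-4n (41.3%) and 51 of 737 in P1-2n (6.92%) also held another cell type's markers. Among all CMs at 2000 UMIs, 36.2% in P1-4n and 5.27% in P1-2n held such markers. Of the CMs with another cell type's markers, 39.2% in P1-4n and 30.2% in P1-2n held mitotic genes. The shares of all CMs with mitotic genes were 34.3% and 23.0%. Whether these CMs are single cells was not tested.

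The comparison was therefore repeated on CMs without a single UMI of those 63 markers, 4413 of P1-2n (60.1%) and 977 of P1-4n (20.6%), with medians of 1747 and 2516 UMIs. The choice uses the marker genes, and it keeps shallower cells. Of 6548 genes tested there, 28 (0.428%) were 2-fold higher and 7 (0.107%) 2-fold lower. Of the 505 genes that were 2-fold higher in all CMs, 54 had the 100 UMIs needed, and 22 of these were still 2-fold higher. The summed log2 ratio of the 420 genes of the 505 that are neither mitotic genes nor markers was 1.72 in all CMs and 0.58 (0.54 to 0.62) in the marker-free CMs. It was 1.84 when CMs of 1500 to 4000 UMIs alone were used, which brings the depth per CM closer. The 505 genes, with the 420 among them, were chosen for a 2-fold ratio in all CMs. The 1.72 was in part set by that choice, and the other values describe the same chosen genes.

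The mitotic genes stood high in these CMs too. Their summed log2 ratio was 1.60 (1.55 to 1.65) in the marker-free CMs, above the 1.32 of all CMs. It was 1.68 when Fabp4 was not counted as a marker, which kept 5857 and 1689 CMs. The difference was smaller in CMs that held another cell type's markers after thinning, 169 of P1-2n and 1358 of P1-4n. Mitotic genes had 1020 and 1239 CPM there, a log2 ratio of 0.28 (0.17 to 0.39). In the 3038 and 2391 thinned CMs without such markers they had 694 and 2049 CPM, a log2 ratio of 1.56. The cause of this difference between the cell groups was not tested. The 10 genes with the highest lower bound in the marker-free CMs were all mitotic: Ube2c, Ccnb1, Cdc20, Spc25, Top2a, Birc5, Cdk1, Cks2, Ccna2 and Prc1. Ube2c stood at 149 and 453 UMIs there, 16.1 and 150 CPM, a log2 ratio of 3.21 (2.94 to 3.49). Ccnb1 had 35 and 116 UMIs and a log2 ratio of 3.34 (2.78 to 3.93). Pttg1 stayed at 0.07 (-0.11 to 0.25). The DNA replication genes had a log2 ratio of 0.024 in these cells, and the sarcomere genes -0.046.

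**Figure D4:**
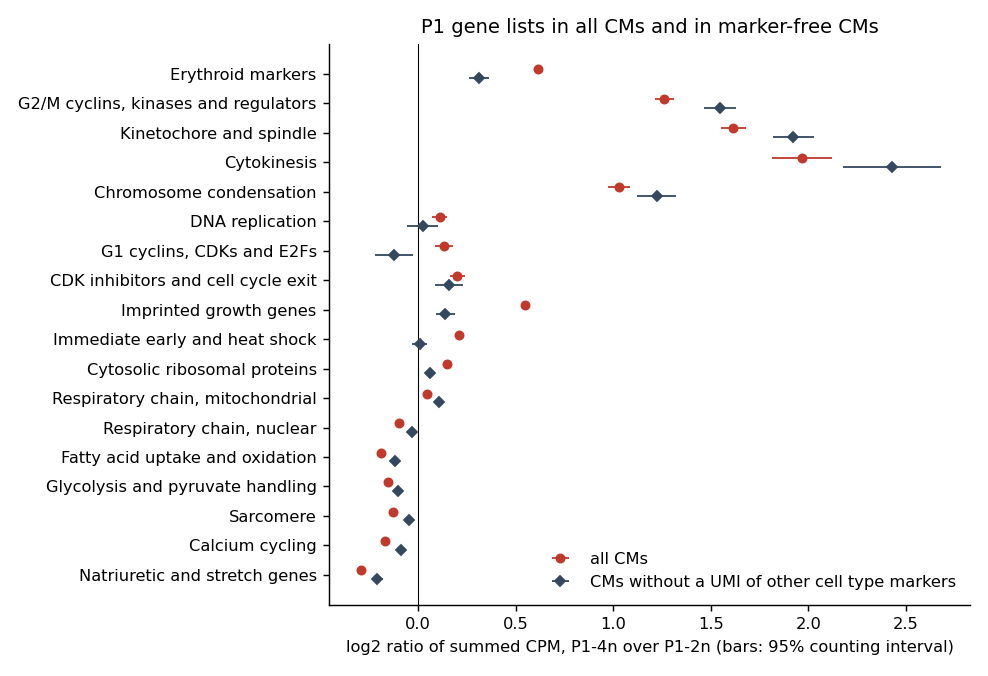
Log2 ratio of summed CPM, P1-4n over P1-2n, for gene lists in all CMs (red circles) and in CMs without a UMI of other cell type markers (blue diamonds), with 95% counting intervals. The 4 mitotic lists run from 1.03 (chromosome condensation) to 1.97 (cytokinesis) in all CMs. In the marker-free CMs the same lists run from 1.22 to 2.43. Imprinted growth genes are at 0.55 and 0.14.

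In the lower direction the marker-free CMs gave genes of varied function. Pex10, a peroxisomal ubiquitin ligase, had 100 and 10 UMIs and a log2 ratio of -1.71 (-2.82 to -0.77), against -0.39 in all CMs. Irx3, a homeobox factor of the ventricular conduction system, had 139 and 20 UMIs (-1.19). The amino acid stress genes Asns, asparagine synthetase, and Trib3, a pseudokinase, had log2 ratios of -0.92 and -1.02. The nuclear RNA Malat1 had 8097 and 5483 CPM, a log2 ratio of -0.56 (-0.59 to -0.54), beside -0.18 in all CMs. The noncoding transcript AY036118 had 2662 and 1830 UMIs in all CMs (log2 -0.80) and -0.91 in the marker-free ones. Gm26518, Dfna5 and Arid4a were also lower by this rule, at -0.93 to -1.32.

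The 15 genes with the highest lower bound in all CMs held 3 of the fibroblast markers, Col1a1, Col5a1 and Col1a2, and 12 genes outside the marker lists. Cxcl1, a neutrophil chemokine (chromosome 5, 90891241 to 90893115), had 18 UMIs (1.09 CPM) in P1-2n and 384 UMIs (19.5 CPM) in P1-4n, a log2 ratio of 4.16 (3.48 to 4.93). Its neighbour Cxcl2 had 11 and 207 UMIs and the monocyte chemokine Ccl2 19 and 253, log2 ratios of 3.98 and 3.48. The 3 collagen genes and Bgn, Eln, Thbs1 and Gpc6, which encode secreted or cell surface matrix proteins, had log2 ratios between 2.84 and 3.53. Sh3pxd2b, an adaptor of podosomes, had the highest ratio of all tested genes, 4.19, from 5 and 109 UMIs. Fscn1, Gpm6b, Igfbp7 and Ptn completed the 15, at 2.81 to 3.66. None of these 15 had 100 UMIs in the marker-free CMs, which held 9229766 UMIs in P1-2n and 3022967 in P1-4n. The 3 collagen genes are markers and have 0 UMIs there by the choice of cells. Cxcl1 had 2 and 4 UMIs there (0.217 and 1.32 CPM) and Eln, elastin, 17 and 21 (1.84 and 6.95 CPM). Ptn, the growth factor pleiotrophin, had 44 and 27 (4.77 and 8.93 CPM), while Fscn1 went the other way with 4 and 0 UMIs.

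Imprinted growth genes had a log2 ratio of 0.55 (0.53 to 0.57) in all CMs. Of 15 members 14 were tested and 5 were 2-fold higher, against 5.23% of all tested genes. H19, a noncoding RNA expressed from the maternal allele, had 1832 and 6955 UMIs, 111 and 354 CPM (log2 1.67), and Meg3, another maternal noncoding RNA, 308 and 1559 UMIs (log2 2.08). Dlk1, a Notch ligand relative, had 89 and 563 UMIs (log2 2.40), Peg3 281 and 863 UMIs (log2 1.36), and Cdkn1c was the fifth. In the marker-free CMs the list had 0.14 (0.09 to 0.19), H19 0.41 (0.20 to 0.61), Meg3 0.34 (-0.32 to 0.96) and Igf2, the fetal growth factor, 0.07 (-0.08 to 0.23) after 0.89 in all CMs.

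Immediate early and heat shock genes likewise had a higher ratio in all CMs than in the marker-free ones. Of 22 tested, 21 had an interval above 0, against 24.7% of all tested genes. Klf2, the 1 gene of the 22 that was 2-fold higher (4.55%, beside 5.23% of all tested genes), had 436 and 1297 UMIs (log2 1.31, and 0.06 in marker-free CMs). Fos, an AP-1 subunit, had 178 and 268 CPM. The constitutive chaperone Hspa8 was the exception with 1465 and 1346 CPM (log2 -0.12). The list's sum had a log2 ratio of 0.21 in all CMs and 0.01 (-0.03 to 0.05) in the marker-free ones.

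The 11 transcription factors that the study tested in cultured CMs were all measured, and none was 2-fold different. Their sum was 226 and 304 CPM, a log2 ratio of 0.43 (0.37 to 0.49). Egr1, the immediate early factor with most of these UMIs, had 1448 and 2844 UMIs (log2 0.72). Zeb1, a zinc finger repressor, had 241 UMIs (14.7 CPM) in P1-2n and 451 UMIs (22.9 CPM) in P1-4n, a log2 ratio of 0.65 (0.42 to 0.88) in all CMs and 0.20 (-0.30 to 0.67) in the marker-free ones. Myc had 47 and 107 UMIs, with log2 ratios of 0.93 (0.42 to 1.46) and, from 25 and 20 UMIs in the marker-free CMs, 1.29 (0.36 to 2.20). Sp1 had 0.65 (0.36 to 0.95) and Mycn 0.56 (0.14 to 0.99). Nfya, a subunit of the CCAAT-binding NF-Y, had 119 and 156 UMIs and a log2 ratio of 0.13 (-0.22 to 0.49). The intervals of 5 of the 11 lay above 0 and of none below, beside 24.7% and 13.1% of all tested genes, and the summed log2 ratio was 0.21 (0.09 to 0.33) in the marker-free CMs. Of receptors and growth control genes, Fgfr1 alone among 12 tested was 2-fold higher (8.33%, beside 5.23% of all tested genes), with 76 and 234 UMIs. The neuregulin receptors Erbb2 and Erbb4 had log2 ratios of 0.29 (0.04 to 0.55) and -0.34 (-0.66 to -0.03).

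Genes of the contractile machinery took a smaller share of the transcripts in P1-4n. The 24 sarcomere genes had 80570 CPM in P1-2n against 73580 in P1-4n, a log2 ratio of -0.13. The interval lay below 0 for 21 and above 0 for 1, Myl7, against 13.1% and 24.7% of all tested genes. With this many UMIs the intervals are narrow, so small shifts exclude 0. No member differed 2-fold. Ttn, titin, the molecular spring, had 1267 and 1016 CPM (log2 -0.32), Tnnt2, troponin T, 9200 and 7991 CPM (-0.20), and Myl2, the ventricular light chain, 12524 and 12298 CPM (-0.03). In the marker-free CMs the list stood at -0.046 and Myl2 at 0.06. Calcium cycling genes had an interval below 0 for 9 of 13 tested, beside the same 13.1% of all tested genes. Among them were Pln, phospholamban, at 5708 and 5032 CPM and Casq2, calsequestrin, at -0.24.

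Natriuretic and stretch genes were lower mainly through Nppa, the atrial natriuretic peptide gene (chromosome 4, 148000722 to 148002079), with 32213 UMIs (1959 CPM) in P1-2n and 29067 UMIs (1478 CPM) in P1-4n, a log2 ratio of -0.41 (-0.43 to -0.38). Its relative Nppb had 209 and 215 CPM (log2 0.04). Ankrd1, a stretch-responsive repressor, had -0.29, and the skeletal actin gene Acta1 -0.45. Acta1 and Nppa kept an interval below 0 in the marker-free CMs, with log2 ratios of -0.38 and -0.30. Atrial CM markers had 313 and 309 CPM, and at 2000 UMIs per CM 4.71% and 4.96% of CMs held at least 2 of them.

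Fatty acid genes were lower by small amounts across nearly the whole list. Of 24 tested the interval lay below 0 for 22, against 13.1% of all tested genes, and the sum was 18374 and 16094 CPM (log2 -0.19). Acaa2, the last thiolase of fatty acid oxidation, had 1328 and 1025 CPM (-0.37), and Hadhb, of the trifunctional protein, had -0.31. Cd36, the fatty acid transporter, which endothelium also expresses, was the only one with an interval above 0, at 334 and 358 CPM. The marker-free CMs had -0.12 for the list. Glycolytic genes had an interval below 0 for 16 of 26 tested, beside the same 13.1% of all tested genes. Their summed log2 ratio was -0.16, or -0.10 in the marker-free CMs. Ldhb, lactate dehydrogenase B, had 1922 and 1584 CPM, while Pgk1 stood on the other side at 0.47. The nuclear genes of the respiratory chain had -0.10 and the mitochondrial ones 0.047, beside 0.049 for the median gene. Of the mitochondrial ones 10 of 13 had an interval above 0, against 24.7% of all tested genes. In the marker-free CMs the nuclear list had -0.03 and the mitochondrial list 0.109, beside -0.027 for the median gene. Slc25a4, the mitochondrial ADP/ATP carrier, had the largest difference in CPM among genes lower in P1-4n, with 9760 and 7978 CPM. Single genes with larger differences were Ucp3, a mitochondrial carrier induced by fatty acids, with 218 and 151 UMIs (log2 -0.79), Gpd1, cytosolic glycerol-3-phosphate dehydrogenase, with 110 and 78 UMIs (-0.75), and Fh1, fumarate hydratase, with 477 and 365 CPM (-0.39). The 81 tested cytosolic ribosomal protein genes had 0.15 (71 with an interval above 0, against 24.7% of all tested genes), and 0.06 as a median in the marker-free CMs.

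The same ratios at the other ages put the P1 values beside 10579 CMs of E16.5 and 8067 of P5. 447 genes (4.64%) were 2-fold higher in 4n CMs at E16.5 and 175 (1.87%) at P5, and 2 (0.0208%) and 38 (0.406%) were 2-fold lower. The mitotic genes had a log2 ratio of 1.80 at E16.5, 1.32 at P1 and 1.89 at P5, with levels of 2634 and 9176 CPM at E16.5 and of 1275 and 4728 CPM at P5, so P1 had the lowest mitotic level of the 3 ages in both 2n and 4n CMs. Pttg1 stayed near 0 at all 3 ages, with -0.11, 0.04 and 0.04. Markers of other cell types had 1.96 at E16.5, 2.10 at P1 and 0.23 at P5, and the fibroblast markers alone 2.40, 2.71 and 0.47. At P5 the 2n library itself held 300 CPM of fibroblast markers, beside 162 CPM in P1-2n and 174 CPM in E16.5-2n. Cxcl1 had 3.83 CPM in 2n and 10.9 in 4n CMs at E16.5 and 1.90 and 4.24 at P5, beside 1.09 and 19.5 at P1, while Cxcl2 had log2 ratios of 4.04 at E16.5, 3.98 at P1 and -0.54 (-1.36 to 0.26) at P5, the last from 34 and 24 UMIs.

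Of the 505 genes that were 2-fold higher at P1, 400 were tested at E16.5 and 257 of them (64.25%) were 2-fold higher there as well, which is 71.4% of the E16.5 genes that were tested at P1. At P5 362 were tested and 79 (21.8%) were 2-fold higher, 55.2% of the P5 genes tested at P1. The sarcomere genes had -0.30, -0.13 and -0.11 from E16.5 to P5 and the fatty acid genes -0.27, -0.19 and -0.09. With 1 library per age and ploidy, differences between ages were not tested.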

How the data were processed

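Left ventricular CMs of C57BL/6J mice were measured by 10x Genomics Chromium 3' v2 sequencing in 6 libraries, of which P1-2n and P1-4n are compared here. According to the study's methods and notes, the authors aligned reads to GRCm38 (mm10) with STAR in Cell Ranger, whose version is not given in the sources used here. The authors deposited raw UMI counts for each of 27998 genes and each called cell, without normalization, and their Seurat (2.3.0) results were not used. A list of gene symbols and a table of the authors' own fold changes and p-values between E16.5-4n and P5-4n were also not used.

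From these counts, UMIs of all CMs (at least 1 UMI of each of 4 marker genes) were summed per gene and library and divided by the library's CM total (CPM, computed here from the deposited counts). Genes with at least 100 UMIs in both P1 libraries together were tested. Ratios have exact 95% intervals from the binomial split of the UMIs, sums exact Poisson intervals, and shares of CMs Clopper-Pearson intervals. A difference in shares has as low end the lower P1-4n bound minus the upper P1-2n bound. Its high end is the upper P1-4n bound minus the lower P1-2n bound. UMIs remove PCR copies, so these intervals cover the sampling of molecules alone, not differences between litters or sorts. A gene was called at 2-fold, since 1 library per side allows no test. Members and gene lists were chosen with earlier results of these data known. Genes named are the 15 in each direction with the interval bound farthest from 0, the 10 in each direction in marker-free CMs, the 10 in each direction with the largest difference in CPM, list members, and genes the study names; 1 gene that the rule selects is not reported here. Shares of CMs used CMs thinned to 2000 UMIs. The scripts were tested on simulated data. No doublet caller was run and no cells were clustered. Coordinates are from GENCODE M21 on GRCm38, which matched 9643 of 9653 tested genes by Ensembl ID, and promoters from RefSeq on GRCm38.p6. Python 3.11.15, numpy 2.4.6, scipy 1.17.1, pandas 2.3.3 and matplotlib 3.10.9 were used. The alternatives tried were other scalings, CM filters, count minimums, cell subsets and thresholds.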

Additional observations from a re-analysis of the deposited data

Results flagged for a closer look

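7 comparisons of gene lists between ages had a log2 ratio of 4n over 2n CMs of opposite sign at P1 and at another age, with counting intervals that exclude 0 on both sides. With 1 library per age and ploidy the difference was not tested in any of them. DNA replication genes had 0.11 (0.07 to 0.15) at P1 and -0.34 (-0.37 to -0.31) at P5. G1 cyclins, their kinases and E2F factors had 0.13 (0.09 to 0.18) at P1, -0.05 (-0.09 to -0.01) at E16.5 and -0.35 (-0.40 to -0.31) at P5. Mitochondrially encoded respiratory chain genes had 0.047 at P1, where the median gene had 0.049, and -0.020 at E16.5. In the marker-free P1 CMs they had 0.109 (0.105 to 0.114), where the median gene had -0.027. Imprinted growth genes had 0.55 (0.53 to 0.57) at P1 and -0.10 (-0.13 to -0.08) at P5. Macrophage markers had 2.01 (1.78 to 2.25) at P1 and -0.34 (-0.58 to -0.09) at P5, from 184 and 888 UMIs at P1 and 315 and 256 UMIs at P5. Erythroid genes had 0.62 (0.60 to 0.64) at P1 and -0.44 (-0.47 to -0.42) at P5.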

How the results depend on the processing

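No paired analysis was possible because each side is 1 library, so no replicate could be left out either. The number of genes tested differed between settings. Of 9653 in the main setting, 505 (5.23%) were at least 2-fold higher and 0 lower in P1-4n. With at least 30 UMIs per gene the counts were 1015 (8.75%) and 8 of 11601. With at least 300 UMIs 187 of 6826 (2.74%) were higher. At 1.5-fold the counts were 928 and 28 of 9653. The mean over cells of CPM gave 1 lower gene. Restricted to CMs of 1500 to 4000 UMIs the counts were 243 (3.17%) and 7 of 7667, and to CMs with fewer than 2 mitotic genes 155 (2.02%) and 2 of 7685. For CMs with fewer than 3 marker UMIs of other cell types they were 76 (0.912%) and 4 of 8334. For CMs with 0 such UMIs they were 28 (0.428%) and 7 of 6548. With Fabp4 not counted, an alternative chosen after seeing the data, CMs with 0 had 55 (0.721%) and 5 of 7627.

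The log2 ratio of mitotic genes (1.32) was 1.27 with scaling by the median of ratios, 1.29 as a mean over cells, 1.10 at 1500 to 4000 UMIs, 1.46 without the tenth of CMs with most UMIs, 1.63 with fewer than 3 marker UMIs, 1.60 with 0 and 1.68 with Fabp4 not counted. In CMs with fewer than 2 mitotic genes it was -0.079 (-0.17 to 0.015), of opposite sign with an interval that includes 0. Cenpa was at -0.36 there. These cells were chosen by the mitotic genes themselves, counted without thinning, so both values were in part set by that choice. CMs chosen at 2000 UMIs with fewer than 2 mitotic genes and no other cell type had 0.31 (0.23 to 0.39). The cause of the difference was not tested. DNA replication genes (0.11) had 0.063, 0.20, 0.064 and 0.25 under the first 4 of these settings, 0.024 with 0 marker UMIs, 0.061 with Fabp4 not counted and -0.072 (-0.15 to 0.0014), of opposite sign, in CMs with fewer than 2 mitotic genes, where the cause was not tested. Markers of other cell types (2.10) had 2.05 with scaling by the median of ratios, 2.18 with 2 UMIs of each CM marker, 2.02 with no CM filter, 2.34 at 1500 to 4000 UMIs and 2.22 without the deepest CMs. With fewer than 3 marker UMIs they had 0.30 and Fbln1 was at -0.10, both in part set by a choice that uses these markers. They have no value where CMs with 0 marker UMIs are chosen.

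Fatty acid genes (-0.19) and sarcomere genes (-0.13) kept their sign. They had -0.24 and -0.18 with scaling by the median of ratios, -0.21 and -0.15 with the top 50 genes by UMIs removed from the total, -0.18 and -0.12 as a mean over cells, -0.25 and -0.15 at 1500 to 4000 UMIs, -0.12 and -0.046 with 0 marker UMIs, -0.13 and -0.051 with fewer than 3, -0.13 and -0.047 with Fabp4 not counted, and -0.17 and -0.092 with fewer than 2 mitotic genes. Sarcomere genes had -0.13 with 2 UMIs of each CM marker and -0.14 without the deepest CMs. The share of CMs with mitotic transcripts differed by 28.0 points without thinning, and that with another cell type's markers by 38.7 points without thinning, 22.4 at 1000 UMIs and 21.8 with at least 3 genes. Of 5381 values of 462 named and list genes under 13 alternatives, 4125 stayed within the main counting interval and 1254 moved outside it. The other 2, those of Cenpa and Fbln1 above, reversed. A value could count as reversed only for the 109 genes with a 2-fold difference in the main setting. Sign changes of the remaining genes are among the 4125 and 1254. A gene at 100 UMIs had wide intervals: the median width was 0.87 on the log2 scale in the third of genes with fewest UMIs and 0.24 in that with most.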

Other observations

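The atrial CM genes Sln and Myl7 had higher ratios in the marker-free CMs than in all CMs. The 5 atrial CM markers together had a log2 ratio of -0.02 (-0.07 to 0.03) in all CMs and 0.31 (0.21 to 0.42) in the marker-free ones. Single members ran from -0.27 to 2.35 in all CMs, with 4 intervals above 0 and 1 below. Sln, sarcolipin, an inhibitor of the calcium pump, had 43 and 84 UMIs in all CMs, a log2 ratio of 0.71 (0.16 to 1.27), and 2.05 (1.08 to 3.04) in the marker-free CMs, where its 17 and 23 UMIs lie below the minimum of 100 used elsewhere. Myl7, the atrial regulatory light chain, had 118 and 132 CPM in all CMs, with log2 ratios of 0.16 (0.08 to 0.25) there and 0.52 (0.35 to 0.68) in the marker-free CMs. Gja5, connexin 40 of the conduction system and atria, had 81 and 195 UMIs and a log2 ratio of 1.01 in both sets of CMs, in the marker-free ones from 41 and 27 UMIs. The list of trabecular and conduction genes that holds Gja5 summed to -0.32 in all CMs and -0.22 in the marker-free ones. Of its 6 tested genes, 3 had an interval above 0 and 3 below in all CMs.

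The mitochondrially encoded genes were not uniform. 10 of 13 had an interval above 0, against 24.7% of all tested genes, with mt-Nd3 highest at 0.20. But mt-Atp8 had 276 and 222 CPM, a log2 ratio of -0.31 (-0.37 to -0.25), and mt-Nd6, the gene on the light strand, 166 and 137 UMIs, -0.54 (-0.87 to -0.20). Ung, the uracil-DNA glycosylase, had 505 and 371 UMIs at P1, with log2 ratios of -0.99 at E16.5, -0.70 at P1 and -1.72 (-1.90 to -1.55) at P5.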
